A study of Citrus maxima and Citrus sinensis with 4 samples.

Results

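The miR164 family of *Citrus* leaves was represented by 3 of the 699 miRNA precursor loci in the deposited table. These were all loci whose homology label names miR164, and each was labelled ath-miR164a after the *Arabidopsis* miRNA. The loci were scaffold_5_850258, which the study names miR164a, scaffold_7_1146566 and scaffold_5_943315, given here by the identifiers of the table, which states no positions on the *C. clementina* genome. Leaf small RNA was sequenced from sour pummelo (*C. grandis*, listed in GEO under its synonym *Citrus maxima*), which is intolerant to excess boron (B), and from 'Xuegan' sweet orange (*C. sinensis*), which is tolerant. Sand-grown seedlings of both species were watered for 15 weeks with nutrient solution that held boric acid at 10 μM (control) or at 400 μM (B-toxic), and mature leaves were taken. The labels put transplanting at 5 weeks of age and treatment 10 weeks later, whereas the methods give 11-week-old seedlings. RNA of 5 replicates was mixed for each of the 4 conditions, so there was 1 library per condition and no spread between plants could be measured. A table of miRNA loci holds no defining marker of leaf cells, so the tissue label could not be checked, and fewer cells of a type and less miRNA per cell cannot be told apart. Every test below compares the reads of libraries and not the conditions, and every interval covers counting error only.

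In flowering plants miR164 guides the cleavage of mRNAs of NAC transcription factors. In *Arabidopsis* its targets include *CUC1* and *CUC2*, which set organ boundaries and leaf-margin serration, *NAC1*, which acts in auxin-dependent lateral root formation, and *ORE1*, which promotes leaf senescence. There, miR164 declines and *ORE1* rises as leaves age. The target mRNAs were not measured in these libraries. For *Citrus*, the study predicted a NAC domain gene and a polygalacturonase gene as targets of miR164a. In its qRT-PCR both went undetected in control leaves and were very low in B-toxic leaves.

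The mature sequences carry the identity of the family, and they are shown 5′ to 3′ with the seed (bases 2 to 8) in capitals.
scaffold_5_850258: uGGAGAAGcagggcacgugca
scaffold_7_1146566: uGGAGAAGcagggcacaugcu
scaffold_5_943315: aGGAGAAGugugggacaucug

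All 3 sequences had 21 nt and the same seed, which no other of the 579 distinct mature sequences in the table carried at bases 2 to 8. Beyond the seed the members fell apart. Counted from the 5′ end, scaffold_7_1146566 differed from scaffold_5_850258 by only G17A and A21U, near the 3′ end. The sequence of scaffold_5_943315 differed by 9 substitutions (U1A, C9U, A10G, G11U, C14G, G17A, G19C, C20U and A21G) and lacked the 5′ uridine. By the same ungapped comparison, with unaligned end bases counted as differences, the nearest sequence without a miR164 label differed from scaffold_5_850258 at 10 positions and the median one at 16. Apart from the seed, scaffold_5_943315 thus shared only bases 12, 13, 15, 16 and 18 with miR164a, and it lay nearly as far from miR164a as the closest locus without the label. It is counted here as a member by its label alone, and its membership was not tested.

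The precursors show which arm of the hairpin a sequence came from, and those of the most abundant and the least typical member are printed with the mature sequence in capitals.
scaffold_5_850258: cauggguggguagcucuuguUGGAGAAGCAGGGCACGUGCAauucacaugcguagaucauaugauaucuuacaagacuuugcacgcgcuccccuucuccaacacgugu
scaffold_5_943315: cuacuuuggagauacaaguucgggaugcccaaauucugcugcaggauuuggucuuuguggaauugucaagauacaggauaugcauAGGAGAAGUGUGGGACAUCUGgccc

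The precursors of scaffold_5_850258 (108 nt) and scaffold_7_1146566 (110 nt) held the mature sequence on the 5′ arm at positions 21 to 41. That of scaffold_5_943315, also of 110 nt, held it on the 3′ arm at positions 86 to 106. Folding with RNAfold paired 18 of the 21 mature bases at scaffold_5_850258, leaving bases 9, 10 and 15 unpaired, and 19 at scaffold_7_1146566, leaving bases 7 and 21 unpaired. At scaffold_5_943315 only 15 were paired, against a median of 17 over all 699 loci, and 17.6% of loci had fewer. The folding energy of scaffold_5_850258, scaffold_7_1146566 and scaffold_5_943315 was -38.6, -59.5 and -25.9 kcal/mol, or -35.7, -54.1 and -23.5 kcal/mol per 100 nt against a median of -26.7. Scaffold_7_1146566 therefore folded more stably per length than 93.4% of the loci although it had few reads.

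Over the whole precursor scaffold_5_850258 and scaffold_7_1146566 were 59.0% identical in a global alignment with gap columns counted, while scaffold_5_943315 was 46.6% identical to the first and 51.2% to the second.

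**Figure D1:**
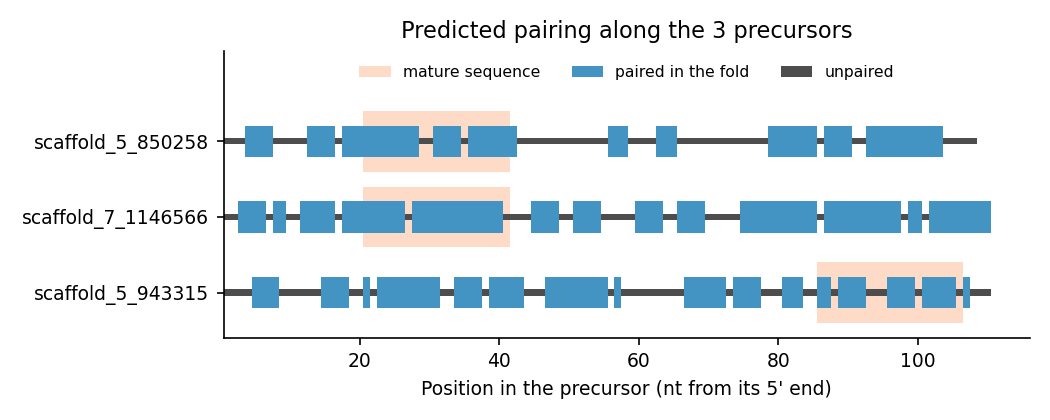
Predicted base pairing along the 3 precursors. The x axis gives the position in nt from the 5′ end, wide blue blocks are paired bases, thin grey bars are unpaired bases and the shaded span is the mature sequence, which lies at positions 21 to 41 in the upper loci and 86 to 106 in scaffold_5_943315.

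The depth of the table and the use of each precursor differed widely between the members. The *C. grandis* libraries held 373890 (control) and 325441 (B-toxic) mature reads, and the *C. sinensis* libraries 346600 and 243277. Normalised read counts (RPM) are scaled to these totals, so that 1 read was worth between 2.67 and 4.11 RPM. Of 1966 mature reads of the family, 1944 (98.9%) came from scaffold_5_850258, which ranked 51st of 699 loci by reads. Scaffold_7_1146566 had 21 reads and scaffold_5_943315 had 1, against a median of 38 reads per locus. None of the mature sequences was listed at a further locus, so no miR164 read of the table was counted at several loci.

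Reads of the mature sequence made up 1944 of 1970 reads on the precursor of scaffold_5_850258 (98.7%, exact Clopper-Pearson 95% interval 98.1 to 99.1%) over the 4 libraries. The share was 21 of 24 at scaffold_7_1146566 (87.5%, 67.6 to 97.3%). At scaffold_5_943315 it was 1 of 9 (11.1%, 0.281 to 48.2%), and 0 of the 699 loci had a lower share, the median being 95.8%. The remaining 26, 3 and 8 reads on the precursors were not the mature sequence. The table does not resolve them by position or library, so reads that overlap the mature sequence may be among them.

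**Figure D2:**
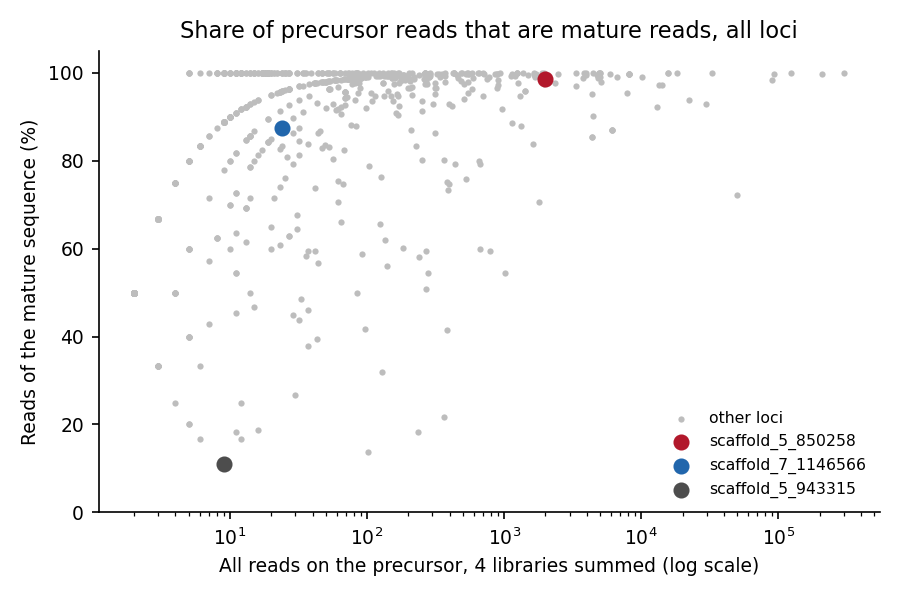
Share of precursor reads that were reads of the mature sequence (y axis, percent) against all reads on the precursor summed over the 4 libraries (x axis, log scale), 1 point per locus. Scaffold_5_850258 sits at 98.7% among loci with many reads, and scaffold_5_943315 has the lowest share in the plot at 11.1%.

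In *C. grandis*, miR164a fell under B-toxicity to 0.409 of its control level, and in *C. sinensis* it was at nearly the same level in both libraries. The *C. grandis* libraries gave 829 (control) and 295 (B-toxic) reads of scaffold_5_850258. The *C. sinensis* libraries gave 486 and 334. Scaled to the library totals these were 2217 RPM (exact 95% interval 2069 to 2373), 906 (806 to 1016), 1402 (1280 to 1532) and 1373 RPM (1230 to 1528) in the same order. The control *C. grandis* library was thus the highest and the B-toxic *C. grandis* library the lowest, with both *C. sinensis* libraries between them and their intervals overlapping. The locus ranked 47th, 64th, 49th and 50th of 699 in these libraries, and it supplied between 98.6 and 99.1% of the miR164 reads in each.

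**Figure D3:**
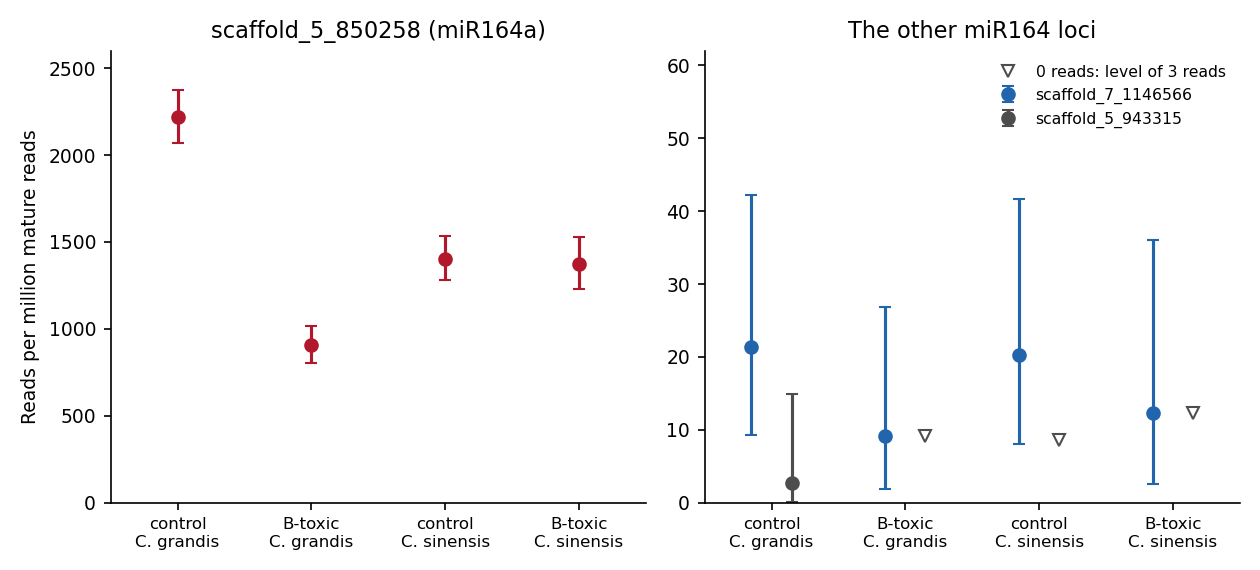
Levels of the miR164 loci in the 4 libraries, in normalised read counts (RPM, y axes start at 0 and differ in scale). Points are single libraries, bars are exact 95% intervals of counting error and open triangles mark the level of 3 reads where a library had 0; scaffold_5_850258 ranges from 906 to 2217 RPM, and the intervals of scaffold_7_1146566 overlap in all libraries.

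The B-toxic to control ratio of scaffold_5_850258 in *C. grandis* was 0.409 (95% interval 0.357 to 0.467), a log2 ratio of -1.29 (-1.49 to -1.10). It passed both limits, a ratio of 2 or more in either direction and an FDR below 0.01 (two-sided Fisher's exact test with Benjamini-Hochberg adjustment over 638 loci, FDR 9.04e-43). It was 1 of 3 members called, and over all loci 7.05% were called, 3.29% as lower. Among 225 loci with at least 100 reads over the 4 libraries and reads in both *C. grandis* libraries, the median log2 ratio was -0.09, 6 loci had a lower ratio than scaffold_5_850258 and 218 a higher one. No spread between plants enters this test. Where libraries of 1 condition were assumed to vary by 0.2 (coefficient of variation, edgeR's exact test), the log2 ratio of -1.29 had an FDR of 0.110 and was not called.

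In *C. sinensis* the ratio of scaffold_5_850258 was 0.979 (0.849 to 1.13), a log2 ratio of -0.03 (-0.24 to 0.17), and it was not called (Fisher's exact test over 640 loci, FDR 1.00), against 1.88% of all loci. Its interval covers no change and, within counting error, leaves out a fall of the size seen in *C. grandis*. The difference between the species was tested directly, by an exact conditional test of equal B-toxic to control ratios. The log2 ratio was 1.26 higher in *C. sinensis* than in *C. grandis* (95% interval 0.98 to 1.54, FDR 1.72e-17 over 579 loci with reads in both species), and at the same assumed variation of 0.2 this call too was lost (FDR 0.455). Among all loci 13.3% were called for such a difference, with a median of 0.29 among 223 loci with at least 100 reads, and 21 of these loci had a higher value than scaffold_5_850258.

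By the library totals, the order of the species differed between the B levels. In control leaves scaffold_5_850258 was lower in *C. sinensis*, at 0.632 of the *C. grandis* level (0.564 to 0.708, log2 ratio -0.66, FDR 3.38e-15 by Fisher's exact test). In B-toxic leaves it was higher in *C. sinensis*, at 1.51 times (1.29 to 1.78, log2 ratio 0.60, FDR 1.17e-06). Both ratios were below the limit of 2, so neither was called, whereas 24.7% and 24.5% of all loci were. At an assumed variation of 0.2 the FDR of these ratios was 0.307 and 0.393 (edgeR's exact test). These comparisons between species depended on the scaling, which moved the log2 ratios of all loci together by -0.39 to 0.62 between the species and by -0.16 to 0.25 between the B levels. With DESeq2's size factors the control ratio was -0.05 (log2, -0.21 to 0.12, FDR 0.779), and with the clean reads of each library the B-toxic ratio was 0.21 (-0.02 to 0.44, FDR 0.147). By the library totals, neighbours in the order of the 4 levels therefore differed beyond counting error except for the *C. sinensis* pair. The fall in *C. grandis* ranged from -1.30 to -1.04 on the log2 scale over the 4 scalings and the difference of the B effect from 0.95 to 1.26, and both were called under each.

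**Figure D4:**
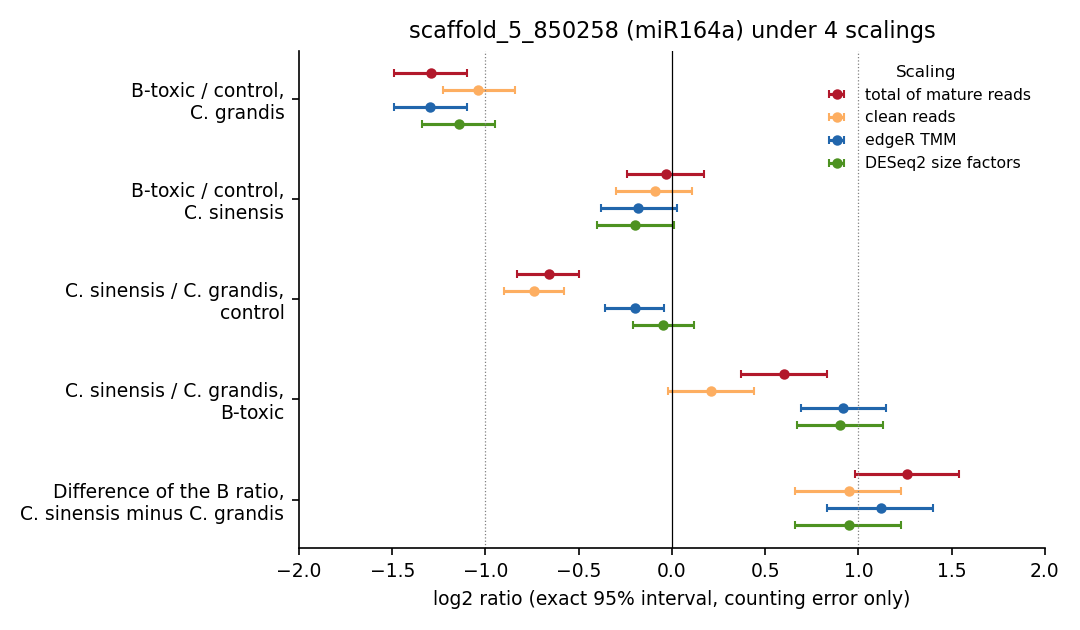
Log2 ratios of scaffold_5_850258 (x axis) in the 4 comparisons of 2 libraries and in the difference of the B ratio, under 4 scalings. Bars are exact 95% intervals of counting error and dotted lines mark a 2-fold ratio; the ratio in *C. grandis* lies between -1.30 and -1.04, and the ratios between the species move most with the scaling.

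A model with B treatment and species as additive terms, fitted to the 4 libraries with edgeR's quasi-likelihood test, left 1 residual degree of freedom. In it scaffold_5_850258 had a log2 B effect common to both species of -0.81 (FDR 0.901) and a log2 species effect of 0.38, *C. sinensis* over *C. grandis* (FDR 0.550), and neither was called. For the common B effect 0 of 349 loci (0.00%) were called and 7 had an unadjusted p below 0.05. With DESeq2, fitted to all 699 loci, these counts were 0 and 5. For the species effect 31.5% of the 349 loci were called by edgeR. Any unequal response of the species to B, such as the one described above, counts as spread in this model.

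The second locus was too rare for its response to be resolved. Scaffold_7_1146566 had 8 (control) and 3 (B-toxic) reads in *C. grandis* and 7 and 3 in *C. sinensis*, or 21.4, 9.22, 20.2 and 12.3 RPM. Both B-toxic counts were the lower of their species, but all 4 intervals overlapped. The log2 ratio was -1.21 in *C. grandis* (-3.76 to 0.84, FDR 0.505 by Fisher's exact test) and -0.71 in *C. sinensis* (-3.29 to 1.42, FDR 0.908). A 2-fold fall or no change could not be told apart at this depth in either species. The locus supplied 0.955%, 1.01%, 1.42% and 0.890% of the miR164 reads in the same order, with overlapping intervals between 0.184 and 2.91%, so no shift between the 2 near-identical sequences was detectable.

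The third locus, scaffold_5_943315, had its single mature read in control *C. grandis* (2.67 RPM). The other libraries had 0 reads, which by a one-sided limit of 3 reads allows up to 9.22 RPM in B-toxic *C. grandis*, 8.66 RPM in control and 12.3 RPM in B-toxic *C. sinensis*. No ratio was computed from these counts. A single mature read over the 4 libraries was shared by 55 of the 699 loci.

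For context, miRNA families known for roles in leaf growth, form and phase (miR156, miR157, miR159, miR160, miR165, miR166, miR167, miR172, miR319, miR390, miR393, miR394 and miR396) were listed at 48 other loci. In *C. grandis* 2 of the 44 tested loci of this list were called (4.55%, against 7.05% of all loci). The miR167a locus scaffold_9_1388622, of a family that targets auxin response factors, fell from 1753 to 743 reads (log2 ratio -1.04, FDR 5.45e-64 by Fisher's exact test), and the miR396g-3p locus scaffold_1_74406 rose from 8 to 25 reads (1.84, FDR 0.00483). More reads came from another miR167a locus, scaffold_5_956475, which rose from 24182 to 30040 reads (log2 ratio 0.51), below the 2-fold limit. A further one, scaffold_3_601367, fell (-0.75) and was not called either. Of the miR396 loci, the miR396a locus scaffold_1_155615 had far more reads, 11372 in control and 9174 in B-toxic leaves (log2 ratio -0.110). The miR396e-3p locus scaffold_1_74403 rose (0.503), and neither was called. The call of scaffold_9_1388622 ended with the clean reads (-0.78) and with DESeq2's size factors (-0.89), which put it below the 2-fold limit. At an assumed variation of 0.2 none of the list's loci was called in either species or for the difference between them. Among the list's 23 loci with at least 100 reads the median log2 ratio was -0.11, beside -0.09 over all such loci, and 14 of the 23 were below 0.

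In *C. sinensis* 3 of 46 loci of the list were called (6.52%, against 1.88%). A miR160a locus, of a family that targets auxin response factors, fell from 119 to 39 reads (scaffold_2_331813, log2 ratio -1.10, FDR 0.000241), and a miR319a locus, of a family that targets TCP transcription factors, fell from 205 to 65 (scaffold_2_325210, -1.15, FDR 9.13e-08), while a miR319d locus rose from 53 to 88 (scaffold_8_1339838, 1.24, FDR 9.23e-06, all by Fisher's exact test). More reads came from another miR160a locus, scaffold_6_1021446, which fell from 567 to 214 reads (log2 ratio -0.895). A further one, scaffold_4_632152, fell from 55 to 21 (-0.878), and neither was called by the library totals. In the study, miR160a was among the exceptions, in both species, for which qRT-PCR did not match the sequencing. With TMM or DESeq2's size factors 5 loci of the list were called in *C. sinensis*, 4 of them lower, which came from 3 distinct sequences. The list's median was -0.40, against 0.17 over all loci with at least 100 reads. For the difference of the B effect 13 of 42 loci were called (31.0%, against 13.3%), 9 with the lower log2 ratio in *C. sinensis* and 4 with the higher one. Loci with the same mature sequence share reads, and these calls came from 11 sequences, 8 lower and 3 higher, of which only 1 was higher with the clean reads or DESeq2's size factors. MiR164a, at 1.26, was on the higher side, and the list's median difference was -0.26. This test had no limit on the ratio, so abundant loci of the list were called at small differences.

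**Figure D5:**
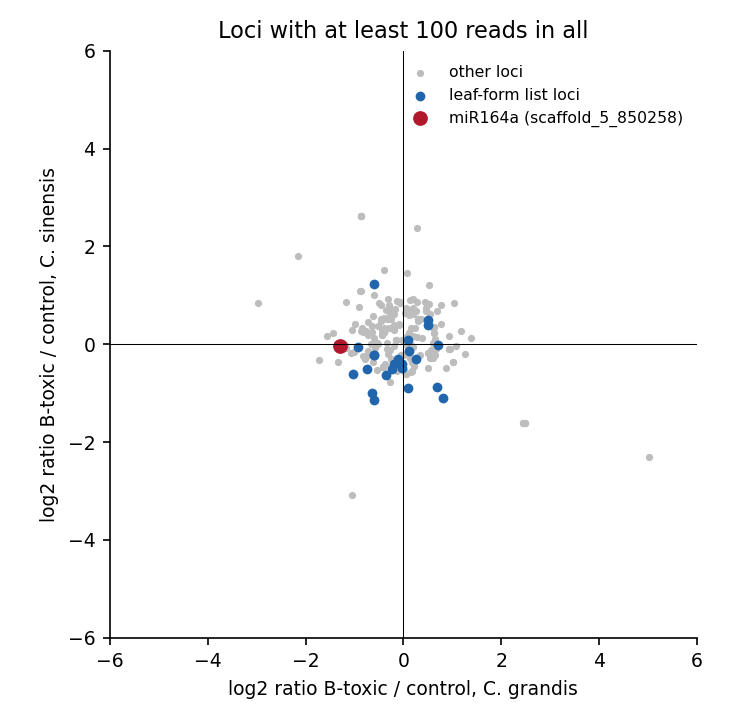
B-toxic to control log2 ratio in *C. grandis* (x axis) and *C. sinensis* (y axis) of 223 loci with at least 100 reads over the 4 libraries, 1 point per locus. Scaffold_5_850258 (-1.29, -0.03) lies at the left edge of the main cloud near 0 on the y axis. Of the 23 plotted loci of the leaf-form list, 19 lie below 0 on the y axis. The list's median there was -0.40, against 0.17 over 228 loci with at least 100 reads. In the list, scaffold_1_94525 and scaffold_1_94526 have the same reads.

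The sequences whose pattern over the 4 libraries was most like that of miR164a were ranked by the Euclidean distance between log2 RPM profiles, each centred on its own mean, among 164 distinct sequences with at least 100 reads. The nearest was a gma-miR5785 homologue (scaffold_3_376088, distance 0.20), with 87 and 33 reads in *C. grandis* and 46 and 32 in *C. sinensis*, control first. The unlabelled scaffold_4_686304 followed (0.23), with 47, 15, 22 and 18 reads in the same order. The next were the unlabelled scaffold_2_209091 (0.47), an aly-miR173a-3p homologue (scaffold_1_94198, 0.48) and an ath-miR157a homologue (scaffold_2_326223, 0.48), while the median distance was 1.34. These likenesses rest on 4 libraries and, except for miR164a itself, on at most 148 reads in a library.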

How the data were processed

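Small RNA of leaves was sequenced in 4 libraries, 1 per species and B level. After trimming and removal of other RNA classes, the authors compared reads with miRBase 21, ran MTide against version 1.0 of the *C. clementina* genome, and deposited raw counts of mature reads per locus and library, with the count of all precursor reads summed over libraries. MTide's version, like its handling of reads that match several loci, was not stated in the sources used here. Libraries were grouped by their labels.

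RPM, exact intervals and Fisher's tests were computed on the total of mature reads (SciPy 1.17.1), with Benjamini-Hochberg adjustment over all loci with a read. Calls needed a 2-fold ratio and an FDR below 0.01 (no ratio limit for the difference between species). The additive model used edgeR 4.0.16 (quasi-likelihood, TMM, filterByExpr, FDR below 0.05), with DESeq2 1.42.0 as an alternative. Precursors were folded with RNAfold 2.7.2. Tests were checked on simulated data. For Fisher's tests and the test of the difference between species these data held counting error only. The check therefore does not cover spread between libraries. Alternatives were other scalings, each distinct sequence counted once, a minimum of 10 reads, the chi-square test and assumed coefficients of variation of 0.2 and 0.4. Named loci were all miR164 loci, called loci of the leaf-form list (at most 2 per direction and species) and the 5 nearest profiles (0.5 read added). Some other loci labelled miR160a, miR167a or miR396 were named beside the called ones. Members and lists were chosen with earlier results of these data known. PCR duplicates cannot be recognised in these counts, and no reference genome was used here. The precursor sequence of scaffold_7_1146566 is not reported here.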

Additional observations from a re-analysis of the deposited data

Results flagged for a closer look

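The B effect on scaffold_5_850258 (miR164a) was flagged because it differed between the species by a test of the difference itself. The log2 ratio of B-toxic to control was -1.29 in *C. grandis* and -0.03 in *C. sinensis*, a difference of 1.26. With 1 library per condition, a difference between the species and a difference between these 4 libraries cannot be told apart from these counts. By stem-loop qRT-PCR on biological replicates, the study reported miR164a as significantly lower in B-toxic *C. grandis* leaves. Its text gives no miR164a value for *C. sinensis*. It names the miRNAs for which qRT-PCR and sequencing differed in each species, and miR164a is not among them. By its methods the total RNA was divided between sequencing and qRT-PCR, so both may rest on the same plants.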

How the results depend on the processing

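For scaffold_5_850258 in the library comparisons, other scalings, counting each distinct sequence once and a minimum of 10 reads changed no sign and no call. For the ratios of 2 libraries, neither did the chi-square test. A call of such a ratio needed the FDR and the ratio limit together. The difference between species needed the FDR alone, and it was 0.95 with the clean reads and with DESeq2's size factors, below 2-fold. The FDR alone crossed 0.01 for the species ratios, which were not called: 0.0451 (TMM) and 0.779 (DESeq2's size factors) in control leaves and 0.147 (clean reads) in B-toxic leaves. At an assumed variation of 0.2 it was 0.307 in control and 0.393 in B-toxic leaves. Assumed coefficients of variation of 0.2 and 0.4 ended the call of the *C. grandis* ratio (FDR 0.110 and 1.00). They also ended that of the difference between species (FDR 0.455 and 1.00). These settings change only the spread assumed in the test, so the values stayed at -1.29 and 1.26 by design. The species effect in the additive model was -0.04 without TMM, against 0.38. For scaffold_7_1146566 the species ratio in control leaves, -0.08 by library totals, was 0.38 with TMM and 0.53 with DESeq2's size factors, and was called under none, and with a minimum of 10 reads its species ratio in B-toxic leaves gave no value.

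Over all loci, the counts called fell with assumed coefficients of variation of 0.2 and 0.4 from 45 to 10 and 3 (B effect in *C. grandis*), from 12 to 6 and 0 (*C. sinensis*), from 163 to 98 and 45 (species, control), from 158 to 104 and 46 (species, B-toxic) and from 77 to 11 and 1 (difference of the B effect). The common B effect was called at 0 loci, at 1 without TMM, at 4 with all loci kept and at 2 with each sequence once. Calls in *C. grandis* split into 24 higher and 21 lower, but 34 and 7 with the clean reads and 26 and 11 with DESeq2's size factors. Those in *C. sinensis* split into 9 and 3, but 8 and 5 by TMM and 7 and 5 by size factors. The species calls in control leaves, 44 higher and 119 lower in *C. sinensis*, became 62 and 76 by TMM and 77 and 65 by size factors. In B-toxic leaves 61 and 97 became 43 and 126 by clean reads, 85 and 73 by TMM and 84 and 73 by size factors. For the difference of the B effect 46 and 31 became 21 and 34, 30 and 32, and 21 and 34, and for the additive species effect 55 and 55 became 45 and 84 without TMM. No paired analysis was possible because each condition had 1 library, so no replicate number could serve as a block (the additive model blocks the B effect by species, not by replicate). The causes of these changes were not tested. Depth limits scaffold_7_1146566 and scaffold_5_943315, whose counts are at most 8 reads.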
